A study of Mus musculus with 8 samples.

Results

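Retained introns were examined in RNA sequencing data of mouse intestinal crypt organoids. A retained intron was a stretch of sequence for which the deposited event tables listed both a form that keeps it as exon (the retaining form) and a form that splices it out between the same outer exon ends (the spliced form). Pairs were kept when both forms were listed in at least 6 of 8 samples and their summed level had a mean of at least 2 FPKM, a level scaled to transcript length and to the number of mapped fragments of the sample. This left 1312 introns of 4240 pairs, in 995 host genes. The retention of an intron was the FPKM of the retaining form as a percentage of both forms. The members were thus chosen on the presence and the summed level of the forms in these samples, and not on the difference between the groups. The pairs just inside the limit of 2 FPKM lay in Rpl41 and Ankrd16, at means of 2.0005 and 2.0027 FPKM, and those just outside lay in Atat1 and Rps6kb2, at 1.994 and 1.9931 FPKM.

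The organoids are epithelial cultures grown in Matrigel from crypts of the small intestine, and the comparison asks how MG53 overexpression alters their transcripts. There were 4 samples from MG53-TG mice, which overexpress MG53 globally, and 4 from littermates labelled as wild type (WT). MG53 is the protein encoded by Trim72, a tripartite motif ubiquitin ligase known for membrane repair in muscle. The study describes the organoid transcriptome in one place for mice that also carry an Lgr5 reporter and in another for MG53-TG and WT mice, as the labels do, and the labels were followed. The labels give no age, no promoter of the transgene and no statement that the cultures of a group came from separate mice, so the p-values measure the spread between these samples. The level of Trim72 was 16.4, 27.4, 31.9 and 36.5 FPKM in the 4 MG53-TG samples, while the WT tables listed no event of the gene.

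Introns are removed by the spliceosome, and an intron that stays in a polyadenylated transcript usually holds that transcript in the nucleus or exposes it to nonsense-mediated decay through a stop codon within the intron. Many retained introns lie in genes of splicing factors and RNA processing proteins, where they tune the amount of productive mRNA. As a class, retained introns tend to be short and rich in GC. Transcripts whose splicing is not yet finished can add to the signal. Retention is therefore a ratio of steady-state levels and not a rate of splicing.

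The sequences of the introns on which the results turn were read from GENCODE vM21 transcripts (GRCm38, the build named mm10 in the processing notes) that carry the intron as exon. This was possible for 1241 of 1312 introns. The following whole introns are shown because their retention did not overlap between the groups, upwards in Reep4, Slc25a10, Plcb3 and Nr1i3 and downwards in Rpl7 and Rps16. They are printed 5′ to 3′ on the transcribed strand. Capitals mark the first stop codon in the reading frame of the annotated coding transcript, and a sequence without capitals has none.
Reep4, chr14:70547007-70547114, plus strand: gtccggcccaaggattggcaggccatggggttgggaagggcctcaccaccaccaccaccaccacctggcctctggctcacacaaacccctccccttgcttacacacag
Slc25a10, chr11:120497107-120497383, plus strand: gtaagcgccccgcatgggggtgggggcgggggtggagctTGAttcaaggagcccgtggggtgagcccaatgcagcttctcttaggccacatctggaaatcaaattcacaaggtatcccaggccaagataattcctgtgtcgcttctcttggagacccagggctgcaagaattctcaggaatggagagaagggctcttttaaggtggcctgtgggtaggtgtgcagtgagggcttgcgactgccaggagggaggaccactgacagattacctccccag
Plcb3, chr19:6954468-6954704, minus strand: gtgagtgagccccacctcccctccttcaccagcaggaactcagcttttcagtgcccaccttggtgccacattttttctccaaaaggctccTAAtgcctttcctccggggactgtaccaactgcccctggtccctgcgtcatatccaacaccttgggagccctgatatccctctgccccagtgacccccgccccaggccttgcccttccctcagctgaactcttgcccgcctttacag
Nr1i3, chr1:171217222-171217313, plus strand: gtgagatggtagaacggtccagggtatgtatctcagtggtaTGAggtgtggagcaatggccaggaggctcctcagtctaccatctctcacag
Rpl7, chr1:16103335-16103509, minus strand: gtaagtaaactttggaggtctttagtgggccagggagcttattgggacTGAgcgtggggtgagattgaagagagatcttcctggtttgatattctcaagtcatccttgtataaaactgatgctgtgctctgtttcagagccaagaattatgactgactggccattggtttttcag
Rps16, chr7:28352274-28352362, plus strand: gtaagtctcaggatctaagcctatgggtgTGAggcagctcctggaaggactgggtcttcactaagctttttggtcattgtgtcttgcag
The Reep4 intron of 108 bases is the only one of these 6 without a stop codon in frame, and its length is a multiple of 3. The others reach a stop within 30 to 91 bases of the donor site, at position 40 in Slc25a10, 91 in Plcb3, 42 in Nr1i3, 49 in Rpl7 and 30 in Rps16.

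For longer introns only the splice sites are shown, as the donor (3 exon bases and 6 intron bases) and the acceptor (20 intron bases and 3 exon bases), with the dinucleotide at the intron end in capitals.
Srsf5 donor, intron chr12:80947866-80949094: cagGTttgt
Srsf5 acceptor: cataattgtcttgtgttaAGgat
Nxf1 donor, intron chr19:8765032-8766796: cagGTcagt
Nxf1 acceptor: ttctgtcccgttcttgacAGcgc
Jmjd6 donor, shared by both introns: tagGTgaga
Jmjd6 acceptor, intron chr11:116839932-116840409: gctcctctgtttatccacAGaac
Jmjd6 acceptor, intron chr11:116839927-116840409: tctgtttatccacagaacAGata
The 2 Jmjd6 introns of 478 and 483 bases differ in their acceptor alone and are paired with the same retaining form.

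Retention was higher in the MG53-TG organoids over the introns as a whole, while very few single introns passed the test. The median retention of the 1312 introns was 2.33%, 2.01%, 2.27% and 2.62% in WT samples 1 to 4 and 4.06%, 4.23%, 4.05% and 4.19% in MG53-TG samples 1 to 4. All MG53-TG samples thus lay above all WT samples, with group means of 2.31% ± 0.251 (SD, n = 4) and 4.13% ± 0.0881. The mean retention was between 14.0% and 14.3% in WT and between 16.7% and 17.0% in MG53-TG. The difference between the group means of the sample medians was 1.82 percentage points, and it is given without a test.

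**Figure D1:**
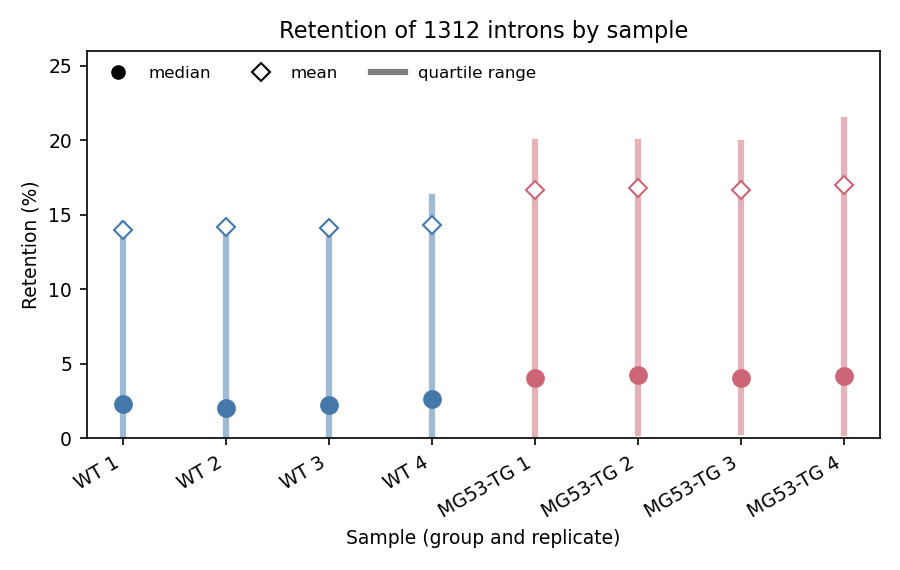
Retention (%) of the 1312 introns in each of the 8 samples, with the median as a filled circle, the mean as an open diamond and the range between the 25th and 75th percentiles as a bar. The 4 medians of MG53-TG lie between 4.05% and 4.23%, above the 4 WT medians of 2.01% to 2.62%.

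Summed over all introns in FPKM, the groups were apart for the spliced forms and not for the retaining forms. The spliced forms summed to 46466 ± 354 FPKM (SD, n = 4) in WT and 39675 ± 1236 FPKM in MG53-TG, while the retaining forms summed to 5697 ± 355 and 5901 ± 371 FPKM. The spliced sum was lower in every MG53-TG sample (38167 to 41004 FPKM) than in every WT sample (46201 to 46967 FPKM), whereas the retaining sums overlapped. The spliced sums were still apart under either of the next changes alone, and overlapped under both. Without the Eef1a1 intron, whose spliced form averaged 5329 FPKM in WT and 3495 FPKM in MG53-TG, the difference was -4958 FPKM in place of -6791 FPKM, and after scaling by the median of ratios it was -2596 FPKM. With both changes, chosen after seeing the data, it was -1211 FPKM (37540 to 39425 FPKM in WT and 35170 to 39393 FPKM in MG53-TG; exact permutation p = 0.286). A retaining form was listed less often in WT, where 69 to 90 of 1312 had no row in a sample and were set to 0, than in MG53-TG samples 1 to 3, where 38 to 41 had none. MG53-TG sample 4 had 70 such absences and still had a median retention of 4.19%.

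Of the 1312 introns, 865 had a higher mean retention in MG53-TG and 447 a lower one, and the median difference was 0.58 percentage points (quartiles -0.304 and 4.62). The 4 MG53-TG values lay above all 4 WT values for 122 introns, which is 9.3% of those measured, and below them for 24 introns, or 1.83%. The retaining form had a mean under 0.5 FPKM for 56 of the 122 and for 10 of the 24. Some of these orders rest on values near 0, as in Rpl13a, among the 122 with a retaining form at 0.000179 FPKM or less. The difference of the means was at least 10 points upwards for 183 introns and downwards for 60. With limma on the arcsine scale, 3 introns passed a Benjamini-Hochberg adjusted p of 0.05 upwards (0.229% of introns) and 0 passed downwards, against 139 and 23 at an unadjusted p under 0.05. All 14 introns with an adjusted p of at most 0.1 were higher in MG53-TG.

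**Figure D2:**
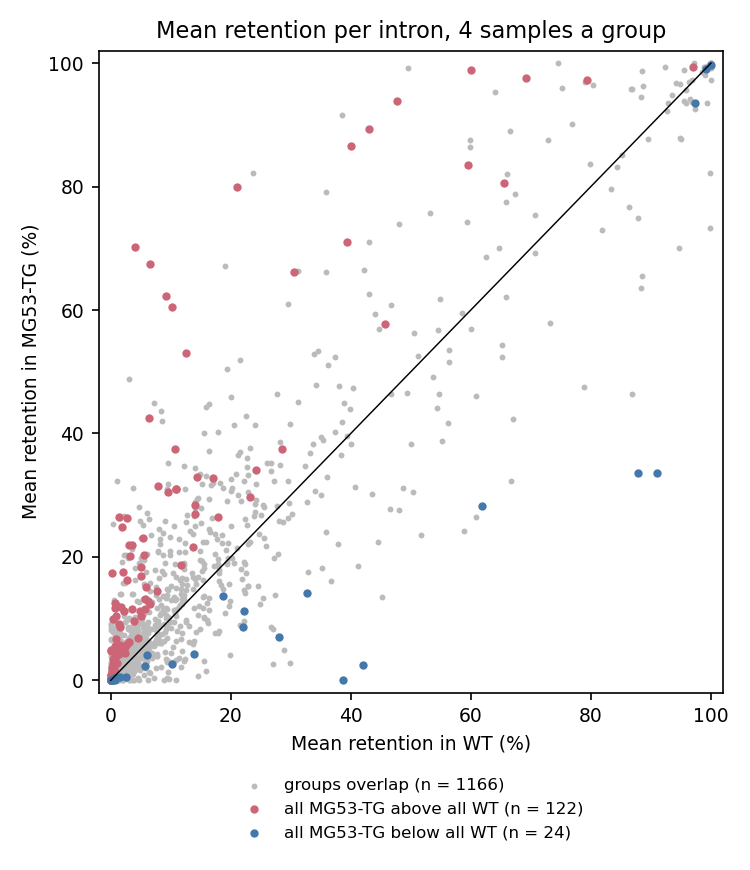
Mean retention (%) of each intron in WT (x axis) and MG53-TG (y axis), 4 samples a group, with the line of equal values. Red points are the 122 introns whose MG53-TG values all exceed the WT values, blue points the 24 with the opposite order, and grey points the introns whose groups overlap.

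Markers of cell types also differed between the genotypes, where 15.7% of all genes tested rose and 28.6% fell (limma, adjusted p of at most 0.05). Of the 10 enterocyte markers all rose, their summed level being 962 to 1120 FPKM in WT and 11614 to 12707 FPKM in MG53-TG. Of 5 stem cell markers 4 fell (342 to 497 against 32.8 to 181 FPKM), of 5 proliferation genes 4 fell (376 to 406 against 119 to 292 FPKM), of 7 goblet markers 5 fell (779 to 893 against 213 to 558 FPKM), and all 5 Paneth markers tested fell (1222 to 1637 against 262 to 459 FPKM). None of these markers hosts a member intron. Of 4 general epithelial markers 3 fell (1699 to 2035 against 1271 to 1436 FPKM), and of 5 enteroendocrine markers tested 3 rose (214 to 236 against 340 to 487 FPKM). Tuft markers summed to 1.19 FPKM or less. Of 6 immune markers 2 were at 0 throughout, and the sum was 3.77 to 9.24 FPKM in WT and 0.609 to 1.47 FPKM in MG53-TG. Mesenchymal markers summed to 4.35 FPKM or less in every sample, and 1 of 2 tested rose. This was Col3a1, at 0.904 to 1.62 FPKM in 3 MG53-TG samples and unlisted, hence set to 0, in every WT sample. MG53-TG sample 1 listed no event of Col3a1 either, but was left out of the fit rather than set to 0. The gene passed the minimum only through MG53-TG, so its rise rests in part on this unequal handling. In bulk samples fewer cells of a type and less RNA per cell cannot be told apart, nor can a change of retention within a cell type and a change in its share, and the part of these markers in the retention values was not tested.

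Reep4, which encodes a membrane-shaping protein of the endoplasmic reticulum, held the intron with the smallest p. Its retention was 0.0477%, 0.607%, 0.0571% and 0.0596% in WT and 17.9%, 17.3%, 23.2% and 11.2% in MG53-TG samples 1 to 4. The groups lay far apart, and the rise of 17.2 percentage points (SE 2.46) had an adjusted p of 0.0118 in limma. Its call was lost on untransformed retention and with the replicate number as a block (adjusted p up to 0.0933, limma). It held under the other alternatives run. The exact permutation test of this intron alone gave an unadjusted p of 0.0286, the smallest that 4 against 4 samples allow. The retaining form was at 0.00716 to 0.133 FPKM in WT and 0.94 to 2.44 FPKM in MG53-TG. It reached the minimum mean of 0.5 FPKM for a test of levels only through MG53-TG, so that its test is not given. The spliced form fell by 0.87 on the log2(FPKM + 1) scale (SE 0.17; adjusted p = 0.00909, limma). GENCODE annotates a protein-coding transcript with this intron as exon, which goes with the open reading frame noted above.

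Slc25a10, the mitochondrial dicarboxylate carrier, held the next intron past the threshold. Its retention was 0.204%, 0.256%, 0.223% and 0.186% in WT and 2.32%, 2.41%, 2.03% and 1.22% in MG53-TG. The rise was 1.78 points (SE 0.271; adjusted p = 0.0462, limma), and here the spliced form rose too, by 0.57 (SE 0.13; adjusted p = 0.0164). The retaining form lay at 0.0479 to 0.0578 FPKM in WT and 0.492 to 0.875 FPKM in MG53-TG, below the mean of 0.5 FPKM required for a test of levels. Its call held without MG53-TG sample 4 and was lost in the other 7 fits that left out a sample (adjusted p up to 0.11).

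Srsf5, a serine/arginine-rich splicing activator, held the remaining intron past the threshold, its intron 5 of 1229 bases. Retention was 0.0275%, 0.119%, 0.0384% and 0.0599% in WT and 1.10%, 0.584%, 0.681% and 0.895% in MG53-TG, a rise of 0.754 points (SE 0.117; adjusted p = 0.0454, limma). The retaining form was at 0.0518 to 0.118 FPKM in WT and 1.07 to 1.37 FPKM in MG53-TG, and as in Reep4 it reached the minimum only through MG53-TG. The spliced form had wide spreads, 56.3 to 197 FPKM in WT and 103 to 211 FPKM in MG53-TG (adjusted p = 0.884). The call was lost without WT sample 1, 3 or 4 and without MG53-TG sample 3 or 4 (adjusted p up to 0.131).

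The introns next in line upwards, Plcb3 and Jmjd6, did not pass the threshold. Plcb3, a phospholipase C that acts downstream of G protein-coupled receptors, had retention of 0.852%, 1.75%, 1.26% and 2.46% in WT and 5.01%, 5.32%, 5.20% and 6.80% in MG53-TG (difference 4.00 points, SE 0.538; adjusted p = 0.0517, limma). Its retaining form rose by 1.58 (SE 0.17; adjusted p = 0.000655), and its spliced form was at 80.4 to 144 FPKM in WT and 98.6 to 121 FPKM in MG53-TG. The Plcb3 groups did not overlap, and it passed the threshold under 5 of 19 alternatives (limma). These were a minimum of 5 FPKM, no minimum, both forms in all 8 samples, absent rows as missing, and the fit without WT sample 4 (adjusted p = 0.026).

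Jmjd6, a hydroxylase that modifies splicing factors, showed how the ratio depends on the spliced form it is paired with. For the 478-base intron, retention was 79.2%, 50.8%, 43.2% and 66.9% in WT and 96.3%, 99.8%, 100% and 99.2% in MG53-TG (adjusted p = 0.0755, limma). For the 483-base intron with the acceptor 5 bases further downstream, it was 82.0%, 100%, 100% and 69.3% in WT and 30.3%, 25.8%, 16.8% and 61.2% in MG53-TG (adjusted p = 0.145). Both use one retaining form, at 2.03 to 5.85 FPKM in WT and 0.103 to 1.93 FPKM in MG53-TG. The spliced form of the nearer acceptor was at 0.614 to 6.36 FPKM in WT and at most 0.00408 FPKM in MG53-TG, whereas that of the farther acceptor was at 0 to 0.899 FPKM in WT and 0.236 to 8.86 FPKM in MG53-TG. Since the retaining form is shared, the opposite order of these introns goes with their spliced forms. An exon of another gene on the same strand overlaps the region.

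The introns with the smallest unadjusted p downwards lay in Slc35c2, Gstm2, Mettl23, Stau1 and Jmjd6, and none passed the threshold (adjusted p between 0.108 and 0.145, limma). Slc35c2, a nucleotide-sugar transporter relative, had retention of 100%, 100%, 78.6% and 85.6% of its 5′ UTR intron in WT and 60.2%, 26.6%, 25.7% and 21.9% in MG53-TG. The spliced form was at 0 to 0.334 FPKM in WT and 1.75 to 5.66 FPKM in MG53-TG, the group through which it reached the minimum, while the retaining form was at 1.22 to 4.21 FPKM in WT and 1.31 to 2.64 FPKM in MG53-TG. Gstm2, a glutathione S-transferase, had 0.36% to 0.545% retention in WT and 0.0963% to 0.18% in MG53-TG, with a spliced form that rose by 2.14 (SE 0.24; adjusted p = 0.00082).

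Mettl23, a methyltransferase-like protein, had 5.94% to 14.6% retention in WT and 2.19% to 3.49% in MG53-TG, with the retaining form at 0.531 to 1.13 and 0.126 to 0.153 FPKM. Stau1, an RNA-binding protein of mRNA transport and decay, had an 85-base intron whose retaining form made up most of its pair, at 97.0% to 97.6% in WT and 91.9% to 96.2% in MG53-TG. This Stau1 form is annotated as protein-coding. In each of these genes the groups did not overlap, and the unadjusted exact permutation p of each intron was 0.0286.

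**Figure D3:**
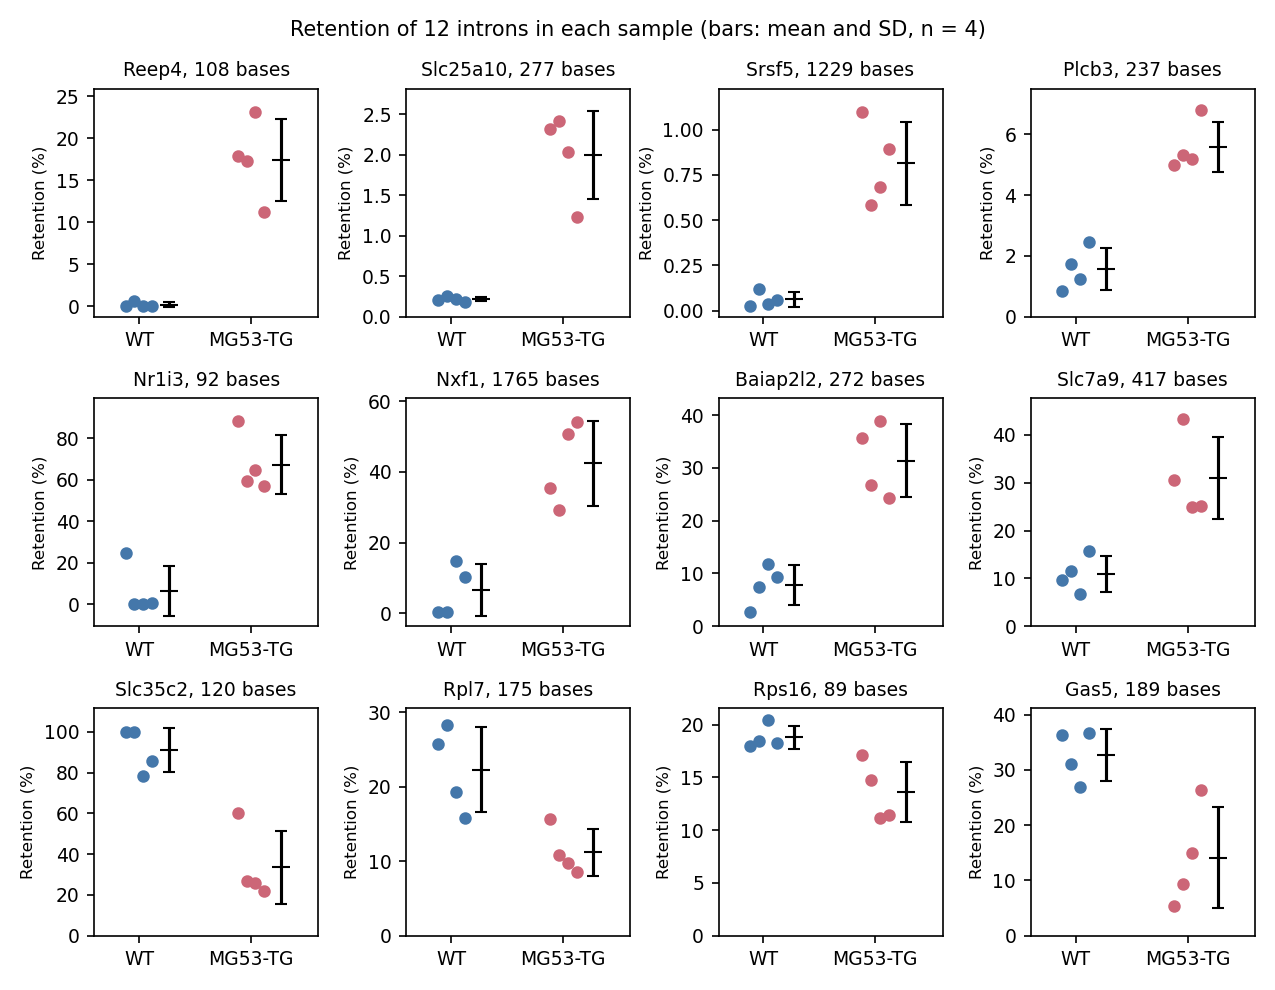
Retention (%) of 12 introns in the 4 WT (blue) and 4 MG53-TG (red) samples, with the mean and SD beside the points. The upper row and the middle row show introns with all MG53-TG samples above all WT samples, such as Reep4 (0.193% and 17.4%), and the lower row shows introns with the opposite order, such as Rpl7 (22.2% and 11.2%). Each panel has its own axis, which includes 0.

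Further introns, here and below, were chosen after their values were seen, to show the range of hosts. They were taken only where the groups did not overlap, as for 9.3% of all introns upwards and 1.83% downwards. Any intron of the same genes with overlapping groups was left out of this choice, so the separations are not typical of the members. Nr1i3 encodes the constitutive androstane receptor, a nuclear receptor of drug and lipid metabolism. Retention of its 92-base intron was 24.8%, 0.337%, 0.0474% and 0.714% in WT and 88.4%, 59.6%, 64.7% and 56.9% in MG53-TG (adjusted p = 0.085, limma). The retaining form was at most 0.609 FPKM in WT and between 18.01 and 38.7 FPKM in MG53-TG, the group through which it reached the minimum, and the spliced form rose by 2.18 (SE 0.53; adjusted p = 0.0209). An exon of a gene on the opposite strand overlaps this intron, and whether the libraries keep strand is not given in the sources used here.

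Slc7a9, Baiap2l2 and Phgr1 were likewise chosen after their values were seen, and none passed the threshold. Slc7a9, the light subunit of the cystine and dibasic amino acid transporter, had retention of 9.55%, 11.6%, 6.79% and 15.8% in WT and 30.6%, 43.4%, 25.02% and 25.2% in MG53-TG (adjusted p = 0.109, limma). Its retaining form was at 0.171 to 0.475 FPKM in WT and 7.08 to 10.9 FPKM in MG53-TG, the group through which it reached the minimum, and its spliced form rose by 2.69 (SE 0.27; adjusted p = 0.0005). Baiap2l2, a membrane-curving protein of microvilli, had 2.75%, 7.45%, 11.8% and 9.42% in WT and 35.6%, 26.8%, 39.0% and 24.2% in MG53-TG (adjusted p = 0.0773). Its retaining form rose by 2.25 (SE 0.27; adjusted p = 0.00116), while its spliced form was at 20.1 to 27.8 and 25.6 to 31.8 FPKM. Phgr1, a gene of gut epithelium, had 48.1%, 0%, 52.1% and 60.2% in WT and 82.7%, 83.9%, 88.2% and 91.7% in MG53-TG (adjusted p = 0.299).

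Among metabolic regulators, Mlxipl, which encodes the carbohydrate-response factor ChREBP, had 16.01% to 18.7% retention in WT and 24.1% to 53.1% in MG53-TG (adjusted p = 0.334, limma), with a retaining form that rose by 1.65 (SE 0.34; adjusted p = 0.0113, limma). Pcyt2, an enzyme of phosphatidylethanolamine synthesis, had 4.10% to 8.29% in WT and 11.7% to 42.1% in MG53-TG (adjusted p = 0.322), with a retaining form that rose by 1.59 (SE 0.20; adjusted p = 0.00133). For Pcyt2 the spliced form of MG53-TG sample 4 lay at 13.5 FPKM, against 49.9 to 58.0 FPKM in the other MG53-TG samples, and the retention difference was 7.57 points without that sample and 14.8 points with it. Mlxipl likewise differed by 8.77 points without MG53-TG sample 1 and 15.6 points with it.

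Other hosts had introns of varied starting levels, none of which passed the threshold. Ddb2, a sensor of ultraviolet DNA damage, had 1.05%, 0.198%, 29.2% and 10.3% in WT and 44.5%, 63.6%, 64.3% and 69.4% in MG53-TG (adjusted p = 0.108, limma). Pkn3, a protein kinase, had 17.4% to 25.7% and 61.8% to 98.9% (adjusted p = 0.0975), where the spliced form was at 3.89 to 4.61 and 0.0156 to 0.953 FPKM and the retaining form was at 0.971 to 1.39 and 0.823 to 2.44 FPKM. Adamtsl5, a secreted ADAMTS-like protein, had 21.5% to 50.9% and 61.6% to 72.4% (adjusted p = 0.109), and Colgalt1, a collagen galactosyltransferase, had 0.488% to 1.39% and 3.16% to 16.9% (adjusted p = 0.14). The adjusted p of Adamtsl5 was 0.0155 without WT sample 2 and that of Colgalt1 was 0.0236 without MG53-TG sample 2, so single samples decided these calls.

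Introns of ribosomal protein genes, a group looked at after the values were seen, had no common direction, as 13 had a higher and 10 a lower mean and 2 did not overlap each way. The introns of Rpl7 and Rps16 were chosen for their lower values. Rpl7, a protein of the large ribosomal subunit and one of the 3 most abundant members, had retention of 25.7%, 28.2%, 19.2% and 15.8% in WT and 15.7%, 10.9%, 9.72% and 8.51% in MG53-TG (adjusted p = 0.189, limma). Its retaining form fell by 1.05 (SE 0.16; adjusted p = 0.00329), from 180 to 225 FPKM to between 79.9 and 135 FPKM. Rps16, of the small subunit, had 18.02% to 20.4% and 11.2% to 17.1% (adjusted p = 0.22), with a retaining form that fell by 0.84 (SE 0.11; adjusted p = 0.00177) and a spliced form that fell by 0.27 (SE 0.08; adjusted p = 0.047).

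Both orders were found among ribosomal hosts. Of 23 introns in 19 genes with Rpl or Rps symbols, 13 had a higher and 10 a lower mean, and the median difference was 0.015 points. The groups did not overlap for 2 of the 23 in each direction, against 9.3% upwards and 1.83% downwards over all introns. Gas5, a non-coding host of small nucleolar RNAs, had 3 introns with lower retention in all MG53-TG samples. One of them, of 189 bases, spans an annotated small RNA and was at 36.3%, 31.1%, 26.9% and 36.7% in WT and 5.43%, 9.39%, 15.0% and 26.5% in MG53-TG (adjusted p = 0.219, limma). Over all members, 34 introns span a small RNA, and the groups did not overlap for 2 of them in each direction, against the same 9.3% and 1.83% of all introns. Irf3, an interferon regulatory factor, had 56.3% to 71.3% in WT and 3.98% to 50.2% in MG53-TG (adjusted p = 0.30).

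Among the other most abundant members, Eef1a1, the main translation elongation factor, had 0.144% to 0.214% retention in WT and 0.275%, 0.286%, 0.294% and 4.78% in MG53-TG. Its highest value came from MG53-TG sample 3, in which the retaining form was at 147 FPKM against 10.01 to 11.5 FPKM in the other MG53-TG samples. Rps18 had 0.0516% to 0.147% and 0.0745% to 0.251%, with overlapping groups. The highest retention, with the spliced form at 0.103 FPKM or less in every sample, was found for introns of Chtop, Ptbp1 and Ftl1, whose retaining forms are annotated as protein-coding. The lowest, with retaining forms at 0.0098 FPKM or less, was found in Rpl13a, Qars and Ndufa4, so that such ratios rest on estimates near 0.

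Levels of the forms were then compared over all events. In limma on log2(FPKM + 1), 61786 events with a mean of at least 0.5 FPKM were tested, of which 8.4% were higher and 15.3% lower in MG53-TG. Of the 1246 distinct retaining forms of the members, 609 passed that minimum, and 58 (9.52%) rose and 18 (2.96%) fell, with a median log2 difference of 0.17. Of the 1312 spliced forms, 1261 passed, and 116 (9.20%) rose and 213 (16.9%) fell, with a median of -0.17. The spliced forms thus had shares near those of all events, whereas the share of retaining forms that fell was lower than that of all events. These counts cover forms that passed the minimum and are a description. Of the retaining forms tested, 94 had a WT mean under the minimum and passed it only through MG53-TG, among them 17 of the 58 that rose, and 29 passed only through WT, among them 3 of the 18 that fell.

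The levels were also compared by event type. The median log2 difference was 0.21 for all 1173 retaining forms tested (IR_ON) and 0.51 for 155 forms that retain several introns (MIR_ON), against -0.15 for all events, -0.19 for spliced forms (IR_OFF), -0.18 for skipped-exon inclusion (SKIP_ON) and -0.15 for transcription starts (TSS). A form can pass the minimum through 1 group alone. Of the member retaining forms tested, 94 did so through MG53-TG and 29 through WT. The medians are therefore a description, from which no conclusion is drawn. Scaling the samples by the median of ratios shifted the median over genes from -0.17 to -0.01, by 0.15. Under that scaling 68 member retaining forms rose and 15 fell, with a median of 0.25, and 141 spliced forms rose and 157 fell, with a median of -0.05. The medians of IR_ON and MIR_ON were 0.28 and 0.55 after scaling, against -0.05 for all events, over the forms that passed the minimum. Retention itself, a ratio within a sample, does not depend on it.

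**Figure D4:**
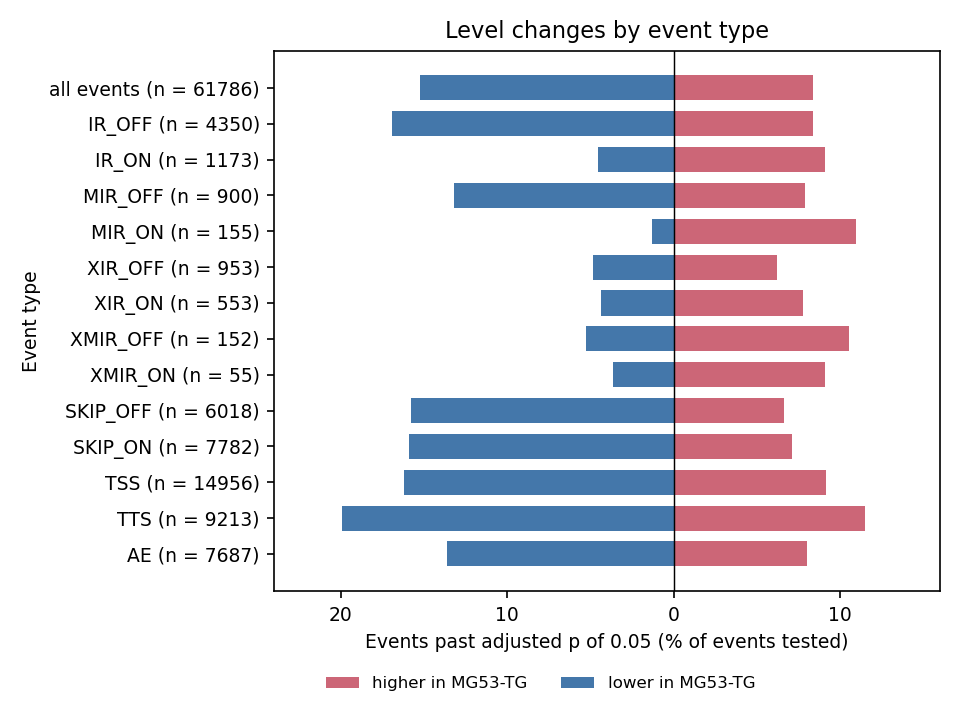
Percentage of tested events with an adjusted p of at most 0.05 (limma) that were higher (red, right) or lower (blue, left) in MG53-TG, by event type; IR, retained intron, MIR, several retained introns, SKIP, skipped exon, TSS and TTS, transcription start and end, AE, alternative exon end, a leading X, variants with approximate ends, ON and OFF, with and without the intron or exon. Of IR_ON events 9.12% were higher and 4.52% lower, against 8.40% and 15.3% of all events.

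The 122 introns with higher retention in all MG53-TG samples were reached from either form. Their retaining form rose in 26, fell in 0, was not past the threshold in 40 and was not tested in 56, while their spliced form fell in 48, rose in 8, was not past the threshold in 64 and was not tested in 2. Of the 24 introns with lower retention, the retaining form fell in 2 and rose in 0, and the spliced form rose in 8 and fell in 1. The 26 retaining forms that rose include forms that reached the minimum for a test only through MG53-TG, such as those of Reep4 and Srsf5. The same holds for the spliced form of Slc35c2 among the introns with lower retention. How many forms of this kind the counts hold is not given here. These counts follow in part from the choice of introns and are given as a description. The host gene level was called higher for 203 introns, lower for 312 and neither for 797, and the median difference of retention was 1.94, 0.52 and 0.42 points in these classes. The share of introns with a higher mean was 67.0%, 69.9% and 64.1%, so higher means were the more frequent in each class. The shares without overlap differed more, at 9.36%, 14.7% and 7.15% upwards and 4.43%, 0.641% and 1.63% downwards. Over all introns they were 9.3% and 1.83%. The relation of retention to host level was not tested.

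Introns in genes of splicing and RNA processing were followed by lists of 190 genes. They held 64 member introns in 45 genes, of which 50 had a higher and 14 a lower mean in MG53-TG. The groups did not overlap for 9 upwards (against 9.3% of all introns) and 1 downwards (against 1.83%), and the median difference was 2.29 points against 0.58 over all 1312 introns. Only the Srsf5 intron passed the adjusted threshold. These counts are a description and mark nothing particular to the lists.

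All 13 introns in 10 genes of nuclear RNA surveillance and export had a higher mean, against 65.9% of all introns, and 4 of them did not overlap (Nxf1, Zfc3h1, Dis3 and Thoc1), against 9.3%. Nxf1, the main mRNA export receptor, is known for an intron that carries a constitutive transport element, through which its own unspliced mRNA leaves the nucleus. Retention of intron 10 of Nxf1 was 0.23%, 0.299%, 14.9% and 10.3% in WT and 35.5%, 29.2%, 50.8% and 54.1% in MG53-TG (adjusted p = 0.109, limma). The retaining form rose by 2.51 (SE 0.35; adjusted p = 0.00204), from 0.0458 to 1.80 FPKM in WT to between 7.25 and 9.01 FPKM, and the spliced form was at 10.3 to 19.8 and 7.63 to 20.3 FPKM. Another Nxf1 intron, of 79 bases, had 0.597% to 7.46% and 0.872% to 8.17%, and whether the 2 introns differ from each other was not tested.

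Other members of this list did not pass the threshold either. Zfc3h1, a factor of the nuclear exosome targeting pathway, had 22.1% to 32.142% in WT and 32.148% to 40.5% in MG53-TG (adjusted p = 0.299, limma), so that its groups nearly touch. Dis3, a catalytic subunit of the exosome, had 0.76% to 1.25% and 1.35% to 4.38% (adjusted p = 0.416), and its spliced form fell by 0.90 (SE 0.22; adjusted p = 0.0229). Thoc1, of the THO export complex, had 0.0692% to 0.204% and 0.207% to 0.357% (adjusted p = 0.787), for its intron of 83 bases, where the retaining form did not exceed 0.0108 FPKM. A second Thoc1 intron, of 197 bases, had 1.98%, 51.3%, 31.0% and 1.57% in WT and 28.9%, 31.6%, 44.3% and 43.4% in MG53-TG, with overlapping groups (adjusted p = 0.598).

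Of 8 introns in 5 genes of SR proteins and splicing activators, 7 had a higher mean and 3 did not overlap (65.9% and 9.3% over all introns), those of Srsf5, Srsf7 and Tra2a. Srsf7 had 4 introns, of which 3 share 1 retaining form and differ in the spliced form. The one of 1386 bases, paired with the most abundant spliced form, had 8.30%, 13.1%, 0% and 0% in WT and 17.7%, 29.8%, 17.9% and 26.7% in MG53-TG (adjusted p = 0.23, limma). Its spliced form fell by 1.42 (SE 0.25; adjusted p = 0.00557), from 57.8 to 83.8 FPKM to between 16.7 and 33.7 FPKM, and the retaining form, with no row in WT samples 3 and 4, was at 4.35 to 14.1 FPKM in MG53-TG. Tra2a, a splicing activator, had a retaining form at 0.00704 FPKM or less in every sample, and its separation rests on values near 0.

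Among hnRNP and other splicing regulators, 16 of 23 introns had a higher mean and 1 did not overlap, shares near or below those of all introns. That intron, of Hnrnph1, a regulator that binds G-rich sequence, was at 95.3% to 98.1% in WT and 99.2% to 99.4% in MG53-TG (adjusted p = 0.14, limma). In the core spliceosome list 9 of 10 had a higher mean and 1 did not overlap, against 65.9% and 9.3% of all introns. That one, of Ddx39b, a helicase of spliceosome assembly and export, was at 54.9% to 71.7% and 77.8% to 87.5% (adjusted p = 0.201). Introns of Snrnp70, which encodes a U1 snRNP protein, shared 1 retaining form, with 14.1 and 8.31 FPKM in MG53-TG samples 1 and 2 and 0.0632 FPKM or less in the 6 other samples. Of 8 introns in CLK and SRPK kinase genes, 3 had a higher and 5 a lower mean and 1 did not overlap, downwards (1.83% over all introns). The Clk1 intron of 87 bases was at 0.773% to 7.97% and 0.52% to 0.594% (adjusted p = 0.621).

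Arglu1, a splicing coactivator known for a retained intron with an ultraconserved exon, was chosen after its values were seen and is in none of the lists. Its intron of 2280 bases was at 57.4%, 84.0%, 88.5% and 87.4% in WT and 97.1% to 97.7% in MG53-TG (adjusted p = 0.214, limma). The retaining form rose by 0.84 (SE 0.25; adjusted p = 0.0461) and the spliced form fell by 1.32 (SE 0.24; adjusted p = 0.00649). Without WT sample 1 the difference was 10.6 points with an adjusted p of 0.0294, against 17.9 points with it.

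The levels of the splicing machinery itself were lower in MG53-TG for many genes, and more so in MG53-TG samples 3 and 4 than in samples 1 and 2. The background over all 11123 genes was 15.7% higher and 28.6% lower, as above. Of 184 genes tested from the lists, 4 rose and 67 fell, and the median log2 difference was -0.40 against -0.17 over all genes. Under the median-of-ratios scaling 8 rose and 44 fell, against 20.4% higher and 20.4% lower over all genes. Of the 67 genes that fell, 50 had both MG53-TG samples 3 and 4 below samples 1 and 2. Among all 184, samples 1 and 2 were both below all WT samples for 64 genes, against 3627 of the 11123 genes tested, and samples 3 and 4 were below samples 1 and 2 for 122 genes (66.3%) and above them for 5, against 41.7% and 20.3% of all genes tested. With samples 3 and 4 left out together, a fit chosen after the data were seen, 6 genes rose and 39 fell. The share of all genes called in that fit is not given here, so these counts cannot be set against a background. The stem and proliferation markers split in the same way, as Olfm4 had 50.1 and 57.7 FPKM in samples 1 and 2 and 6.07 and 0.948 FPKM in samples 3 and 4, and Top2a had 73.5 FPKM in both of the former and 26.8 and 12.98 FPKM in the latter. The part of this split in the splicing gene levels was not tested. The median retention did not split so, and its difference was 1.83 points without samples 3 and 4.

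By list, to be read against 28.6% lower and 15.7% higher over all genes, the core spliceosome had 23 of 56 genes lower and 0 higher, the hnRNP list 18 of 47 lower and 1 higher, the SR list 8 of 18 lower and 0 higher, the surveillance and export list 12 of 28 lower and 0 higher, and the nonsense-mediated decay list 5 of 18 lower and 0 higher, the last a share like that of all genes. Under the median-of-ratios scaling the lists in this order had 15, 14, 3, 9 and 3 genes lower and 0, 3, 1, 0 and 0 higher, against 2266 genes lower and 2267 higher over all genes. The U12 spliceosome, which removes a rare class of introns, had 0 of 9 lower and 1 higher (Armc7), and 0 and 2 under that scaling.

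The 5 genes that fell most were Hnrnpd, Nxt1, Hnrnpa1, Srsf7 and Snrpa1. Hnrnpd, an AU-rich element binding protein, was at 67.9 ± 15.8 FPKM (SD, n = 4) in WT and 21.5 ± 14.2 FPKM in MG53-TG (log2 difference -1.79, SE 0.39; adjusted p = 0.00659, limma). Nxt1, the partner of Nxf1 in mRNA export, was at 28.1 ± 2.38 and 12.3 ± 5.64 FPKM (-1.23, SE 0.29; adjusted p = 0.00874). Hnrnpa1, a splicing repressor, was at 184 ± 77.5 and 76.9 ± 27.05 FPKM, Srsf7 at 91.1 ± 11.8 and 43.3 ± 14.9 FPKM, and Snrpa1, a U2 snRNP protein, at 28.7 ± 5.23 and 13.8 ± 5.22 FPKM.

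The genes that rose were Hnrnpdl, Clk1, Armc7 and Clk4. Clk1, a kinase that phosphorylates SR proteins, was at 18.4 ± 1.37 FPKM (SD, n = 4) in WT and 29.7 ± 2.40 FPKM in MG53-TG (log2 difference 0.67, SE 0.10; adjusted p = 0.000883, limma). Its relative Clk4 rose by 0.34 (SE 0.12; adjusted p = 0.0446) and Hnrnpdl by 0.74 (SE 0.25; adjusted p = 0.0411). In a list of 57 lipid and PPAR genes, 48 of 56 tested rose and 3 fell, against 15.7% and 28.6% of all genes, but only 2 members had their intron there, Slc27a2 (7.99% and 16.5%) and Acadm (0.0211% and 2.54%), both with overlapping groups. All 10 enterocyte markers rose as well, and the part of cell types in the levels of the lipid genes was not tested.

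**Figure D5:**
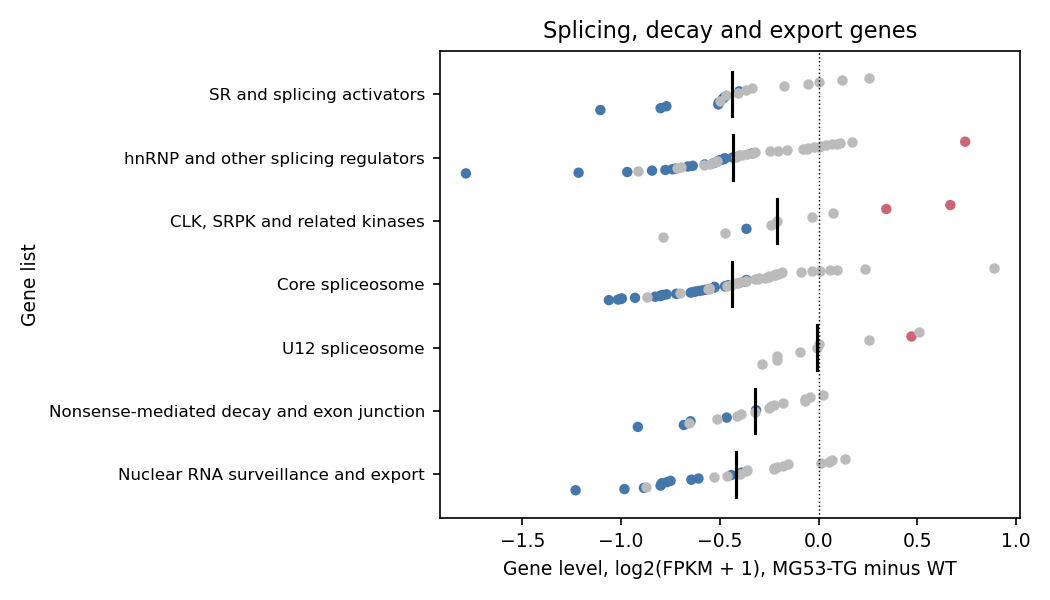
Difference of gene level between MG53-TG and WT on the log2(FPKM + 1) scale for the genes of 7 lists, each point 1 gene, blue if lower and red if higher at an adjusted p of at most 0.05 (limma), grey otherwise, with the median of each list as a black line. The medians of the SR, hnRNP and core spliceosome lists lie at -0.44, and that of the U12 list at -0.01.

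Features that the selection did not use were then described. The introns were short, with a median length of 220.5 bases against 1484 bases for all 284419 annotated introns and 295 bases for the 15268 that lie within an annotated exon of another transcript. Their median GC content was 51.9%, against 50.8% in that second set. The ends were GT-AG in 98.1% and GC-AG in 1.77% of introns with sequence, against 96.1% and 2.03%, and 1 intron had AT-AC ends. The donor site matched the consensus CAGGTAAGT at a mean of 6.03 of 9 bases, against 5.99 in that set. The comparison set shares with the members that an annotated transcript keeps the intron, as 994 of the 1312 are kept in a transcript of the type retained intron, 103 in a protein-coding transcript, 145 in another type and 70 in none.

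Most members lie in coding sequence, at 1233 of 1312. Of 1177 such introns with sequence, 84.0% hold a stop codon in frame, and 188 do not, of which 67 also have a length that is a multiple of 3. The 125 introns with a mean retention above 50% stood apart in this description, as 49.6% of them had such a length and 56.8% of the coding ones with sequence a stop in frame. The 627 introns with a mean under 5% had 31.3% and 87.7%. The 103 introns kept in a protein-coding transcript had a median retention of 54.4% in WT and 47.6% in MG53-TG, but the median difference per intron was -0.0031 points. The groups were apart upwards for 6 (5.83%) and downwards for 3 (2.91%), against 9.3% and 1.83% of all introns. Of the 103, 47.6% had a higher mean in MG53-TG, against 67.1% of the 994 of the retained intron type.

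The introns with higher and with lower retention were described in the same way. The median length was 284 bases for the 122 that were higher in all MG53-TG samples and 120 bases for the 24 that were lower, and 120 of the 122 and 20 of the 24 lie in coding sequence. Of introns over 1000 bases, 11.98% were higher without overlap and 0.521% lower, against 9.3% and 1.83% of all introns. Of introns of up to 100 bases, these shares were 8.67% and 2.60%. In the length classes between these, from short to long, 7.14%, 8.36% and 12.7% were higher and 3.01%, 1.49% and 0.578% lower. These shares by length are a description and were not tested. A stop in frame was found in 88.6% and 85.0% of those in coding sequence with sequence. The donor sites matched the consensus at 6.15 and 6.12 bases on average.

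The difference in points was smaller in more abundant pairs, and so was retention itself. The median difference was 1.84 points at summed levels of 2 to 5 FPKM, 1.27 at 5 to 10, 0.63 at 10 to 20, 0.21 at 20 to 50 and 0.028 above 50 FPKM. In the same order, the median retention was 8.37%, 4.90%, 2.93%, 1.86% and 1.29% in WT. In MG53-TG it was 13.5%, 8.14%, 4.63%, 3.03% and 1.23%, so that the last class had the lower median in MG53-TG. The share of introns with a higher mean was 58.4% above 50 FPKM and between 63.6% and 69.8% in the lower classes, and the share with higher values and no overlap was between 6.10% and 13.9% in all 5. Reads per form are not given, so the precision of a retention value is known from the spread between samples alone.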

How the data were processed

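RNA from 8 crypt organoid samples (4 WT, 4 MG53-TG) was sequenced. Per the labels' processing notes and the methods, the authors used cutadapt 1.9.1, HISAT2 2.0.1 and HTSeq 0.6.1 with build mm10, and DESeq2. The deposited values are FPKM per transcript event and sample; the tool that made them is not given in the sources used here, and counts per form were not recovered, so the depth is unknown. Between 1886 and 2066 repeated rows per file, all with equal values, were dropped. Retaining and spliced forms with the same outer ends and intron were paired, and absent rows were set to 0 (5 retention values had neither form and were left missing). Genes were named by exon boundaries of GENCODE vM21. For 137 introns this gene differed from the one in the files. A gene's level was the highest of its summed starts, its summed ends and its highest single event.

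Retention was compared with limma 3.58.1 (R 4.3.3) on the arcsine of its square root, with a variance trend over abundance, and levels as log2(FPKM + 1), which understates changes of low features. Benjamini-Hochberg adjustment covered all introns, events or genes. For single introns, the difference of the means was also set against all 70 relabellings of the samples (exact permutation, two-sided). The threshold was an adjusted p of 0.05. Named introns were those past it in both directions with no overlap, filled up to 5 per direction by the smallest p, the 3 most abundant, the 3 of highest and the 3 of lowest retention, and hosts in the gene lists, with up to 5 genes of the lists per direction by size. The members and lists were chosen with earlier results of these data known. The fits were also run on values simulated with normal noise, without absent rows or shared retaining forms. The outcome is not given here and would not cover those features of the data. Figures and other steps used Python 3.11.15, numpy 2.4.6, pandas 2.3.3, scipy 1.17.1 and matplotlib 3.10.9.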

Additional observations from a re-analysis of the deposited data

Results flagged for a closer look

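Single samples stood apart from the other 3 of their group more often than chance gives. Of 200 groups of 4 values examined, over all introns named by the rule and chosen later and the sample medians, 36 had such a sample, against about 1 in 20, or 10, by chance. In WT the retention that stood apart was 0.607% in sample 2 for Reep4, 24.8% and 57.4% in sample 1 for Nr1i3 and Arglu1, and 7.97% in sample 3 for the 87-base intron of Clk1. For other introns of splicing and export genes in WT it was 0% in sample 1 for the 247-base intron of Ptbp1, 0.599% and 7.46% in sample 2 for Thoc7 and the 79-base intron of Nxf1, 4.73%, 4.67%, 38.01% and 6.72% in sample 3 for Rbm25, Tia1, the 3329-base intron of Rbm5 and Clk2, and 2.62%, 0% and 10.3% in sample 4 for Tial1, the 84-base intron of Rbm5 and Thoc2.

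In MG53-TG sample 1 it was 60.2% for Slc35c2, 53.1% for Mlxipl, 97.7% for Arglu1, 0.00214% for the 874-base intron of Srsf7, 15.7% for Ddx5, 94.96% for Srpk1, 21.03% for Clk2 and 6.13% for Clk3. In sample 2 it was 0.00273% for Qars, 32.9% for Hnrnpm, 13.3% for Tia1, 0% for Ddx23 and 8.17% for the 79-base intron of Nxf1. In sample 3 it was 4.78% for Eef1a1, 10.1% for the 79-base intron of Ptbp1, 2.03% for Hnrnpk and 1.03% for Thoc7. In sample 4 it was 0.0436% for Tra2a, 100% for the 3329-base intron of Rbm5, 87.5% for Ddx39b, 37.9% for Snrnp48 and 42.1% for Pcyt2.

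Events with several retained introns also had higher shares of retaining forms, whereas for single introns with approximate ends the groups overlapped. Each share pools the FPKM of all events of a type without pairing them, so abundant events weigh most. An exact permutation p of 0.0286 is the smallest that 4 against 4 samples allow. The retaining forms took 3.35% ± 0.0873 (SD, n = 4) of the FPKM of events with several retained introns in WT and 5.91% ± 0.139 in MG53-TG (exact permutation p = 0.0286). Among those with approximate ends, the shares were 6.01% ± 0.767 and 9.34% ± 0.453 (exact permutation p = 0.0286). Single introns with approximate ends had 27.1% ± 1.68 and 28.2% ± 0.867, with overlapping groups (exact permutation p = 0.314).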

How the results depend on the processing

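The count of introns past the threshold, 3, was small and moved with the settings, whereas the direction was upwards for most calls. It was 5 (4 higher, 1 lower) without the minimum level, 5 with absent rows as missing, 1 without the variance trend, 1 among introns of 5% to 95% retention, and 0 untransformed, where limma gave 121 higher and 21 lower at an unadjusted p under 0.05. Leaving out 1 sample gave 2 to 8, with 8 without MG53-TG replicate 1 (6 higher, 2 lower), 6 without WT replicate 2 and 5 without WT replicate 4. With the replicate number as a block it was 1, Nr1i3, and none of the 3. As a log2 ratio of the forms it was 3, of which Reep4 was shared. Of the 3, between 1 and 2 were called in each fit that left out 1 sample. Same-numbered samples did not deviate together over the introns (correlations -0.0037, -0.0055, 0.0112 and 0.0203). The lack of a common deviation cannot exclude that the numbers pair the samples. Without MG53-TG samples 3 and 4 together, chosen after seeing the data, it was 10 (8 higher, 2 lower), 123 spliced forms and 39 splicing and decay genes fell, and Srsf5 had an adjusted p of 0.105 and Pkn3 of 0.0261. The shares of all events and all genes called in that fit are not given here. Reep4 passed under 18 of 20 alternatives (adjusted p 0.00121 to 0.0933), Slc25a10 under 8 of 19 and Srsf5 under 9 of 19. Leaving out 1 sample brought Jmjd6 (0.0375, without WT replicate 1), Nr1i3 (0.0294, without WT replicate 1), Phgr1 (0.0329, without WT replicate 2) and Stau1 (0.0409, without MG53-TG replicate 1) past the threshold. The difference of the median retention was 1.82 points, 1.52 at a mean of at least 5 FPKM, 2.21 without a minimum, 5.32 among introns of 5% to 95%, and 1.73 to 1.93 without 1 sample. Of the member retaining forms, 18 fell, and 11 with the replicate block, and 13 to 23 without 1 sample. Of the spliced forms, 213 fell, 136 without a filter, and 130 to 246 without 1 sample (137 without WT replicate 1 or 2, 130 without MG53-TG replicate 3). Of the splicing and decay genes, 4 rose and 67 fell, 8 and 44 under median-of-ratios scaling, and 1 to 4 and 46 to 87 without 1 sample. The causes were not tested. Among single introns, alternatives were followed for those past the threshold or next in line and for those chosen after their values were seen. The direction of these introns, of the median retention and of the balance of the counts above did not reverse under the alternatives run. Introns named only for a gene list, for high abundance or for extreme retention were not followed in this way. Over all genes, median-of-ratios scaling moved the split from 1745 higher and 3181 lower to 2267 and 2266, and for XAE events (alternative exon ends listed as approximate) it turned from 155 higher and 190 lower to 173 and 134.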
